A study of Saccharomyces cerevisiae with 18 samples.

Results

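The comparison described here sets the RNA changes of a upf1 deletion against those of an ebs1 deletion of Saccharomyces cerevisiae, feature by feature. It compares 12 of the 18 libraries over all 12289 annotated features, of which 10381 had enough counts to be tested. The other libraries entered only the feature filter, the scaling and the estimate of spread. The 4 groups compared were a upf1 deletion, its own wild type, an ebs1 deletion and its own wild type, with 3 libraries each. All 4 are labelled as BY4741 of the S288 background and as mating type a, and all were grown exponentially in YPD at 30 °C and collected at an optical density of 0.6. Total RNA was depleted of ribosomal RNA and made into stranded libraries. The labels do not say whether the libraries of a group came from separate colonies, so each deletion may be 1 clone. The p-values reflect no more than the spread among the libraries fitted. The labels give the 2 series different experimenters. The upf1 effect was therefore taken as upf1 over its wild type and the ebs1 effect as ebs1 over its wild type, each as a log2 change within its own series, and the difference is the upf1 effect minus the ebs1 effect.

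Nonsense-mediated mRNA decay (NMD) degrades transcripts on which ribosomes stop too early. Upf1, encoded by UPF1 and called NAM7 in the annotation, is the RNA helicase at the core of the pathway and acts with Upf2 and Upf3. Ebs1 is related in sequence to the telomerase subunit Est1 and is found with Upf1. Typical NMD targets in yeast are mRNAs with upstream open reading frames, mRNAs that keep an intron, transcripts read through a frameshift site, and non-coding RNAs with short reading frames. These include the Xrn1-sensitive unstable transcripts (XUTs) and part of the stable unannotated transcripts (SUTs), while cryptic unstable transcripts (CUTs) are mainly degraded in the nucleus.

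Libraries held 14243384 to 29742476 counts. The deleted genes matched the labels: NAM7 had 8.42, 8.93 and 8.99 CPM (counts relative to the scaled library total) in the upf1 deletion, against 244, 258 and 250 CPM in its wild type. EBS1 had 3.15, 3.48 and 4.39 CPM in the ebs1 deletion, against 136, 155 and 133 CPM in its wild type. EBS1 itself rose in the upf1 deletion, with 206, 223 and 212 CPM against 98.1, 110 and 112 CPM in its wild type (log2 1.00 ± 0.06 SE, adjusted p = 1.09e-07, edgeR). NAM7 had 359, 372 and 318 CPM in the ebs1 deletion, against 303, 331 and 301 CPM in its wild type, and did not pass the test there (log2 0.17 ± 0.09, adjusted p = 0.515, edgeR).

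A few upstream reading frames and intron starts are shown here, from features that differ in how far they moved in the ebs1 deletion. Sequences are from the R64 reference, written 5′ to 3′ on the gene's strand. The first set gives 30 bases around the first ATG between the annotated transcript start and the coding sequence, with that ATG in capitals and, where it lies in the window, its in-frame stop too. BIL1, YOL159C-A, PPT2 and QDR3 were among the features called in both deletions with the smallest ebs1 p. MET10 changed in the upf1 deletion, and its ebs1 effect was below 0.
BIL1, chrXV:888759-888788, minus strand: ttgtaaATGTGActtgcatcttctgaagga
YOL159C-A, chrXV:15583-15612, minus strand: tattaaATGaatagccccatagaaTAAgta
PPT2, chrXVI:272836-272865, minus strand: tttctaATGaacgtttatttcataagtgct
QDR3, chrII:323986-324015, minus strand: aggcatATGtattcacatctttctaacttg
STN1, chrIV:610357-610386, plus strand: gaatatATGaaatcctgcttgttgatattc
MET10, chrVI:213245-213274, plus strand: gtttagATGgggtgcacaTAGtttttttca
The upstream reading frame of BIL1 is 1 codon long, an ATG directly followed by a stop. Those of YOL159C-A, STN1 and MET10 hold 6, 16 and 4 codons and end before the coding start. Those of PPT2 and QDR3 hold 14 and 36 codons and run past the coding start.

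The second set gives the last 9 exon bases and the start of 4 introns of ribosomal protein genes, read up to the first stop codon met in frame if the intron is kept. The first GT of the intron and that stop are in capitals.
RPL28, chrVII:311007-311023, plus strand: acgtctcagGTatgTAG
RPL22B, chrVI:64912-64929, minus strand: gctccaaacGTacgtTAA
RPL35A, chrIV:117658-117681, plus strand: ttcgaaatgGTatgtttgagaTGA
RPS13, chrIV:579470-579499, plus strand: cacagtgccGTatgtttattaacaccaTAG
All 89 tested introns of ribosomal protein genes hold an in-frame stop, whose first base lies at a median of intron base 14. Of the 122 tested introns of other genes 114 do, at a median of intron base 36.5.

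Features whose upf1 log2 change was 1 or more with an adjusted p below 0.05 (edgeR), called upf1-raised here, numbered 1874, which is 18.1% of the features tested. In the upf1 deletion they stood at a median of 2.87 times wild type, and in the ebs1 deletion at 1.21 times. The median log2 change was 1.52 in the upf1 deletion and 0.27 in the ebs1 deletion. The upf1 values chose this set and are a description, while the ebs1 values come from other libraries. Of the 1874 features, 1568 (83.7%) had an ebs1 effect above 0. In 890 (47.5%) the ebs1 library was higher than the same-numbered wild-type library in all 3 pairs, and in 45 it was lower in all 3. Over all features tested these counts were 2057 (19.8%) and 1847.

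The share of the upf1 effect found in the ebs1 deletion was taken as the slope through the origin of the ebs1 log2 effect on the upf1 log2 effect. It was 15.6% over the upf1-raised features, which include EBS1 itself, and 15.7% without EBS1. The labels say that same-numbered libraries ran in parallel, and the ebs1 and wild-type libraries numbered 1, 2 and 3 gave 21.9%, 14.0% and 14.9% (mean 16.9% ± 4.35 SD, n = 3). Placed singly along the same axis, with the mean of the 3 wild-type libraries at 0, the ebs1 libraries lay at 18.4%, 12.6% and 19.9%, and the wild-type libraries at -3.52%, -1.39% and 4.91%. Every ebs1 library thus lay above every wild-type library, and none came near the upf1 deletion, which is 100% by construction.

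**Figure D1:**
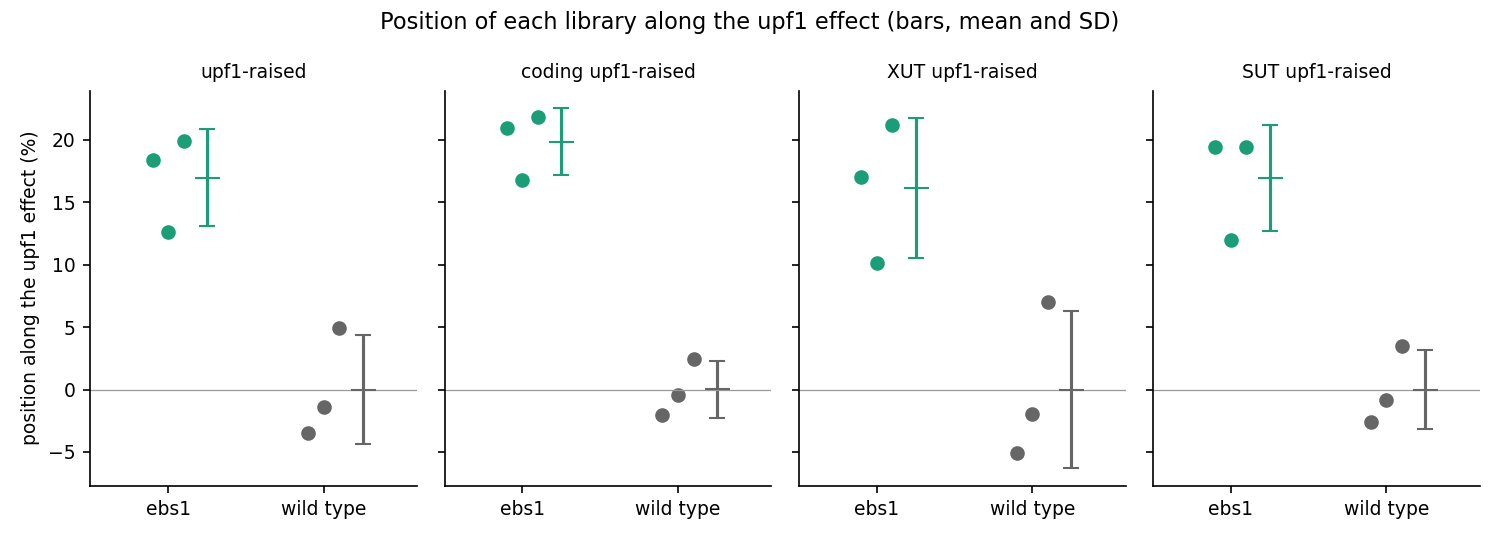
Each point is 1 library of the ebs1 deletion (green) or of its wild type (grey), placed along the upf1 effect in percent over the upf1-raised features of all classes, coding features, XUTs and SUTs; bars give the mean and SD of 3. Over all classes the ebs1 libraries lie at 12.6% to 19.9% and the wild-type libraries at -3.52% to 4.91%.

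The scatter within the set was wide. Across the 1874 features the 2 effects correlated weakly (Pearson r = 0.18, Spearman rho = 0.20), and across all 10381 features at r = 0.43 and rho = 0.49. Features are not independent replicates, and those of 1 effect share their libraries. The set of 1874 is cut at a upf1 log2 change of 1, which narrows the range over which its correlation is taken. Errors of the upf1 effects in this set were small beside the effects themselves, with summed squared standard errors at 1.73% of the summed squared effects. No such share was computed for the ebs1 effects, which were smaller. How much of the scatter is error was therefore not tested. A feature-wise test found the upf1 effect above the ebs1 effect in 1798 features (17.3% of those tested) and below it in 313 (3.02%). With the replicate number as a block the counts were 2259 (21.8%) and 1190 (11.5%). Of the 1798, 1787 were called higher in the upf1 deletion, and of the 313, 306 were called lower in it. Among the upf1-raised features 1388 had a difference called higher and 0 had one called lower, but the upf1 values that chose the set also enter this difference, so nothing is read from those counts. Only 103 of the 1874 (5.5%) had an ebs1 effect of at least 50% of the upf1 effect.

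**Figure D2:**
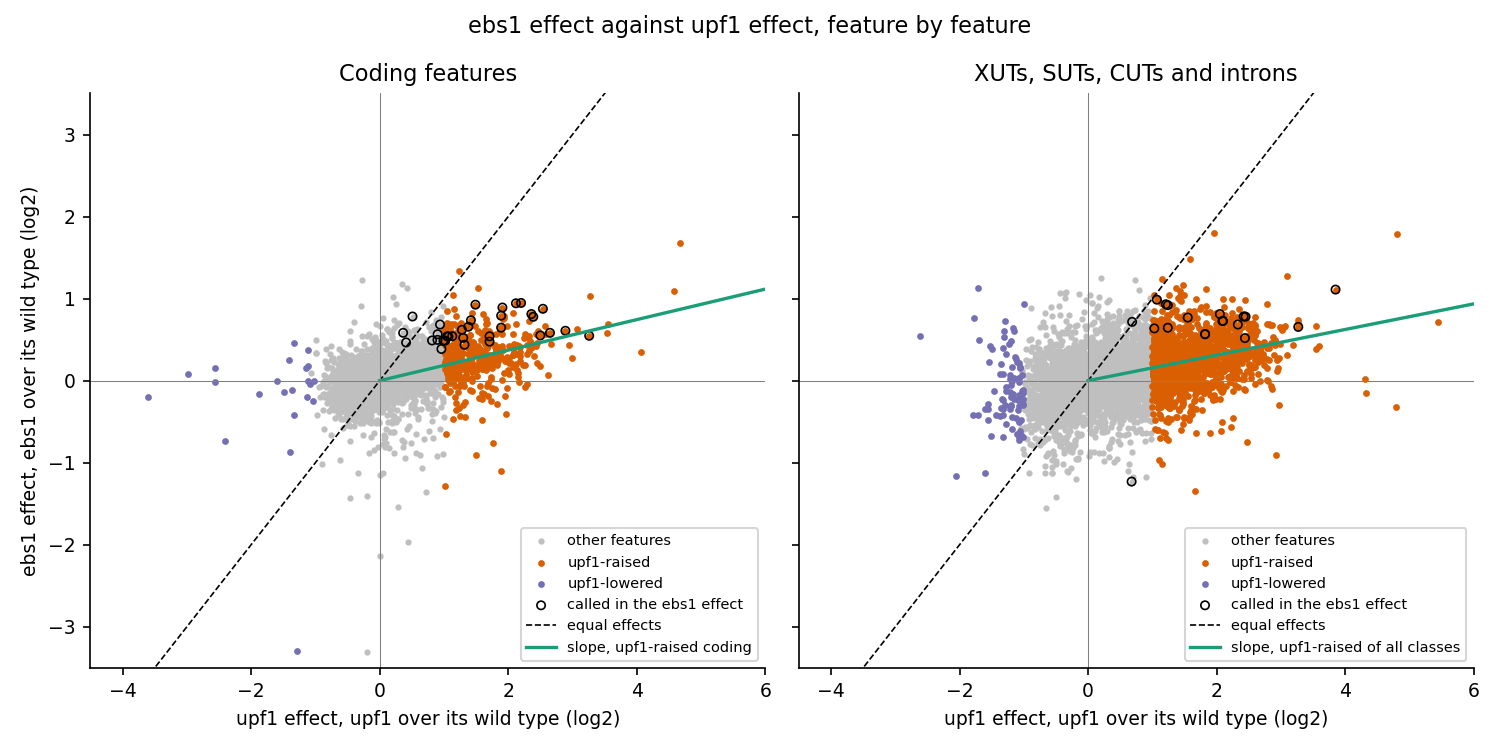
The ebs1 effect (log2, vertical) against the upf1 effect (log2, horizontal) for coding features and for XUTs, SUTs, CUTs and introns; NAM7 and EBS1 are not drawn. Orange points are upf1-raised, purple points upf1-lowered, and black rings are features called in the ebs1 effect. The green line is the slope over the upf1-raised features (18.6% for coding features, 15.6% for all classes), far below the dashed line of equal effects.

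By class, upf1-raised coding features (433) gave a slope of 18.6%, with 23.0%, 17.2% and 19.4% for the 3 replicate numbers. XUTs (773) gave 14.7%, with 22.0%, 12.1% and 14.2%. SUTs (392) gave 16.1%, with 22.0%, 12.9% and 15.9%. The per-number values of the 3 classes overlap. CUTs (99) stood at 13.1%, CUTs of the further annotation (59) at 14.1% and introns (53) at 19.0%, with 14.6%, 28.8% and 14.0% for the replicate numbers of the introns. The ebs1 effect was above 0 in 384 of the 433 raised coding features (88.7%), in 618 of the 773 XUTs (79.9%) and in 338 of the 392 SUTs (86.2%).

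Across sizes of the upf1 effect above 0.5 the share stayed between 13.5% and 17.2%. It was 17.2% for features with a upf1 log2 change of 0.5 to 1, 17.1% for 1 to 1.5, 15.8% for 1.5 to 2, 15.1% for 2 to 3 and 13.5% for the 29 features at 3 or more. In the same order the median ebs1 log2 effect was 0.14, 0.21, 0.29, 0.35 and 0.63. The share was 22.7% for a upf1 log2 change of 0.25 to 0.5. For falling features it was 29.2% from -0.5 to -0.25, 19.1% from -1 to -0.5 and 6.4% from -2 to -1. Replicate numbers gave 18.1%, 15.8% and 44.6% from -0.5 to -0.25, and 2.35%, 3.26% and 32.4% from -1 to -0.5. Of the 2035 features from -0.5 to -0.25, 781 were lower in the ebs1 library in all 3 pairs and 68 higher. By level in both wild types the slope of upf1-raised features was 14.7% under 1 CPM, 14.8% from 1 to 3 CPM, 16.9% from 3 to 10 CPM, 17.0% from 10 to 30 CPM and 18.2% from 30 to 100 CPM, and the per-number values of neighbouring levels overlap. Just inside the threshold of the raised set, CUT139, SUT473 and the RPL19A intron had ebs1 log2 effects of -0.07, 0.31 and 0.21. Just outside it CUT_GIM_0726, CUT_GIM_0430 and CUT_GIM_0729 had -0.32, 0.65 and 0.39.

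**Figure D3:**
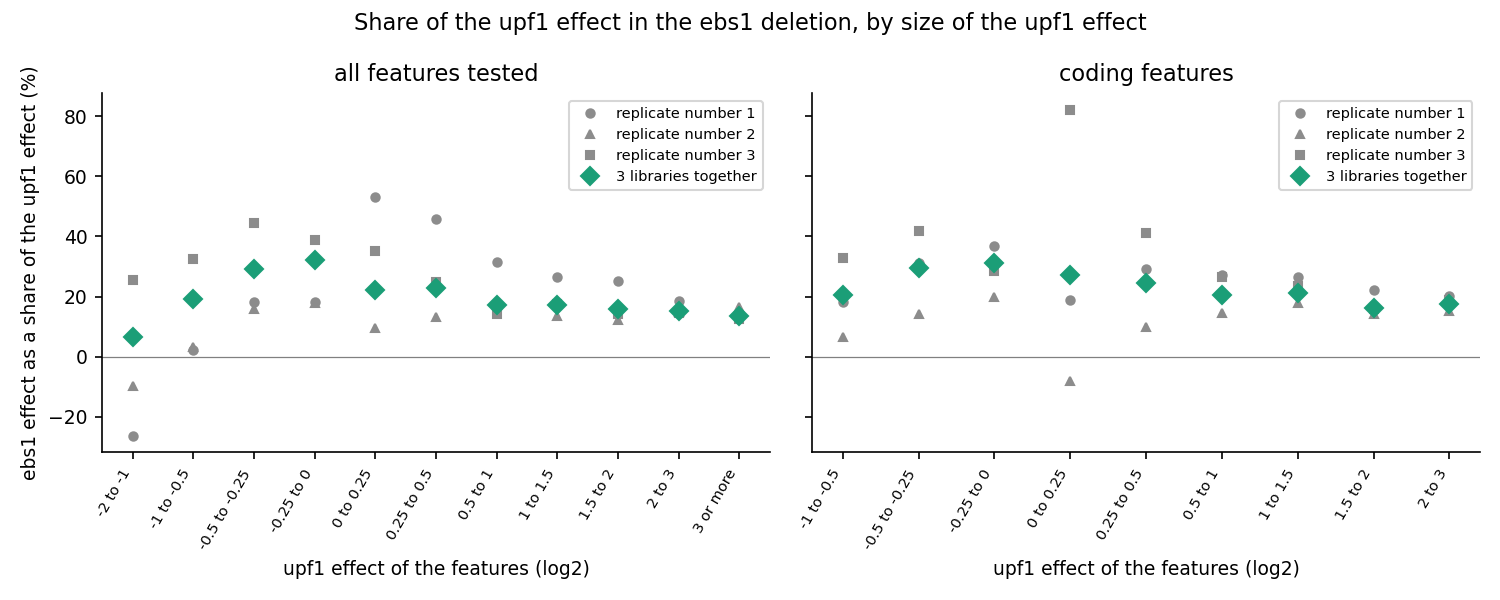
The ebs1 effect as a share of the upf1 effect (percent) for features grouped by the size of their upf1 effect (log2), for all features and for coding features. Green diamonds use the 3 libraries together and grey marks are the 3 replicate numbers; above a upf1 log2 change of 0.5 the diamonds for all features stay between 13.5% and 17.2%, and the grey marks spread widely for features that changed little or fell.

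Only 51 features (0.491% of those tested) were called higher in the ebs1 deletion (edgeR). Only 2 (0.0193%) were called lower, EBS1 itself and XUT_12F-134, and 1287 features had an unadjusted p below 0.05 in either direction. A count of 0 called in a gene list below is therefore near the share over all features and says little about that list. The 51 lie at 45 separate places and comprise 33 coding features, 9 XUTs, 7 SUTs and 2 CUTs of the further annotation. In all 51 the upf1 effect was above 0, and 50 of them were called higher in the upf1 deletion too, which called 3620 of all features (34.9%) higher and 3116 (30%) lower, or 4168 and 2082 with libraries scaled on coding features alone. The exception, YJR112W-A, had a upf1 adjusted p of 0.0558. The 50 are 98% of the features called higher in the ebs1 deletion and 1.38% of the 3620 called higher in the upf1 deletion. Their ebs1 effect ran from 16.8% to 160% of the upf1 effect, with a median of 43.0%. Since the ebs1 values chose these features, that median cannot be set against the slope over the raised set and is only a description.

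This count rests on few libraries. It was 3 without any one of the 3 ebs1 libraries, 3 without wild-type replicate 2, 2 without wild-type replicate 3 and 36 without wild-type replicate 1. With the replicate block 310 features were called higher (2.99%) and 142 lower (1.37%), and 297 of the 310 were also called higher in the upf1 deletion with that block, which called 36.2% of all features. Of the 142, 132 were also called lower there, against 32.3% of all features.

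The smallest ebs1 p among the shared changes was that of BIL1, which encodes a ligand of the actin regulator Bud6 and carries the 1-codon upstream reading frame printed above. It had 56.2, 57.3 and 57.3 CPM in the upf1 deletion, against 12.5, 11.9 and 12.5 CPM in its wild type. It had 27.6, 26.0 and 24.9 CPM in the ebs1 deletion, against 13.4, 14.5 and 12.7 CPM in its wild type. All libraries of each deletion lay above all of their wild type, and the ebs1 libraries lay below all upf1 libraries, although the 2 tables were scaled separately. The upf1 effect was log2 2.20 ± 0.06 and the ebs1 effect 0.95 ± 0.09 (adjusted p = 0.0021, edgeR), 43.0% of it, and the difference of 1.25 was called (adjusted p = 4.69e-07).

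TCA17, which encodes a subunit linked to the TRAPPII vesicle tethering complex, had 89.3, 79.5 and 91.3 CPM in the upf1 deletion, against 15.7, 12.9 and 15.6 CPM in its wild type. In the ebs1 deletion it had 29, 34.5 and 29 CPM, against 17.2, 16.4 and 16.6 CPM in its wild type (log2 0.88 ± 0.10, adjusted p = 0.00367, edgeR). The groups did not overlap in either series. YOL159C-A, a short reading frame without an assigned function here, behaved alike, with a upf1 log2 effect of 2.12 and an ebs1 effect of 0.94 (44.4%, adjusted p = 0.00367, edgeR). BIL1 and YOL159C-A were called in the ebs1 effect under every single library left out, and TCA17 under each except wild-type replicate 3.

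Of the others among the 10 with the smallest ebs1 p, all but MCO6 lay between 34.4% and 51.7%. PPT2, which encodes the enzyme that activates the mitochondrial acyl carrier protein, reached 46.7% of its upf1 effect (log2 0.89 against 1.91). HTL1, a component of the RSC chromatin remodeller, reached 34.4% (0.81 against 2.36), and QDR3, a multidrug and polyamine transporter of the plasma membrane, 41.9% (0.79 against 1.89). HRT1, the RING protein of cullin ubiquitin ligases, reached 51.7% (0.74 against 1.42). SUT509 and XUT_5R-93, which are 1 transcript under 2 annotations, each reached 34.7% (0.73 against 2.10 and 2.09). MCO6, a mitochondrial protein gene, showed a upf1 effect of 0.36 and an ebs1 effect of 0.58, 160% of it, and their difference did not pass the test (adjusted p = 0.248, edgeR). MCO6 overlaps SPT10 on the same strand, so its counts include reads of that gene.

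17 of the 51 features had more than 50% of the upf1 effect in the ebs1 deletion, and 11 of the 51 had no called difference between the effects. Among the 11 were NPP2, a nucleotide pyrophosphatase gene (log2 0.94 in upf1 and 0.68 in ebs1), RIM21, a pH sensor gene (0.90 and 0.57), SRB6, a Mediator subunit gene (0.41 and 0.47), and the SUTs SUT593 (1.07 and 0.99) and SUT439 (1.21 and 0.93). SUT593 had 6.51, 5.75 and 4.83 CPM in the upf1 deletion, against 3.27, 2.18 and 2.47 CPM in its wild type, and 4.72, 3.92 and 4.14 CPM in the ebs1 deletion, against 2.18, 1.93 and 2.18 CPM in its wild type. At the other end, DAL7, the malate synthase of allantoin use, reached 16.8% of its upf1 effect and FLR1, a drug efflux pump, 22.0%.

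**Figure D4:**
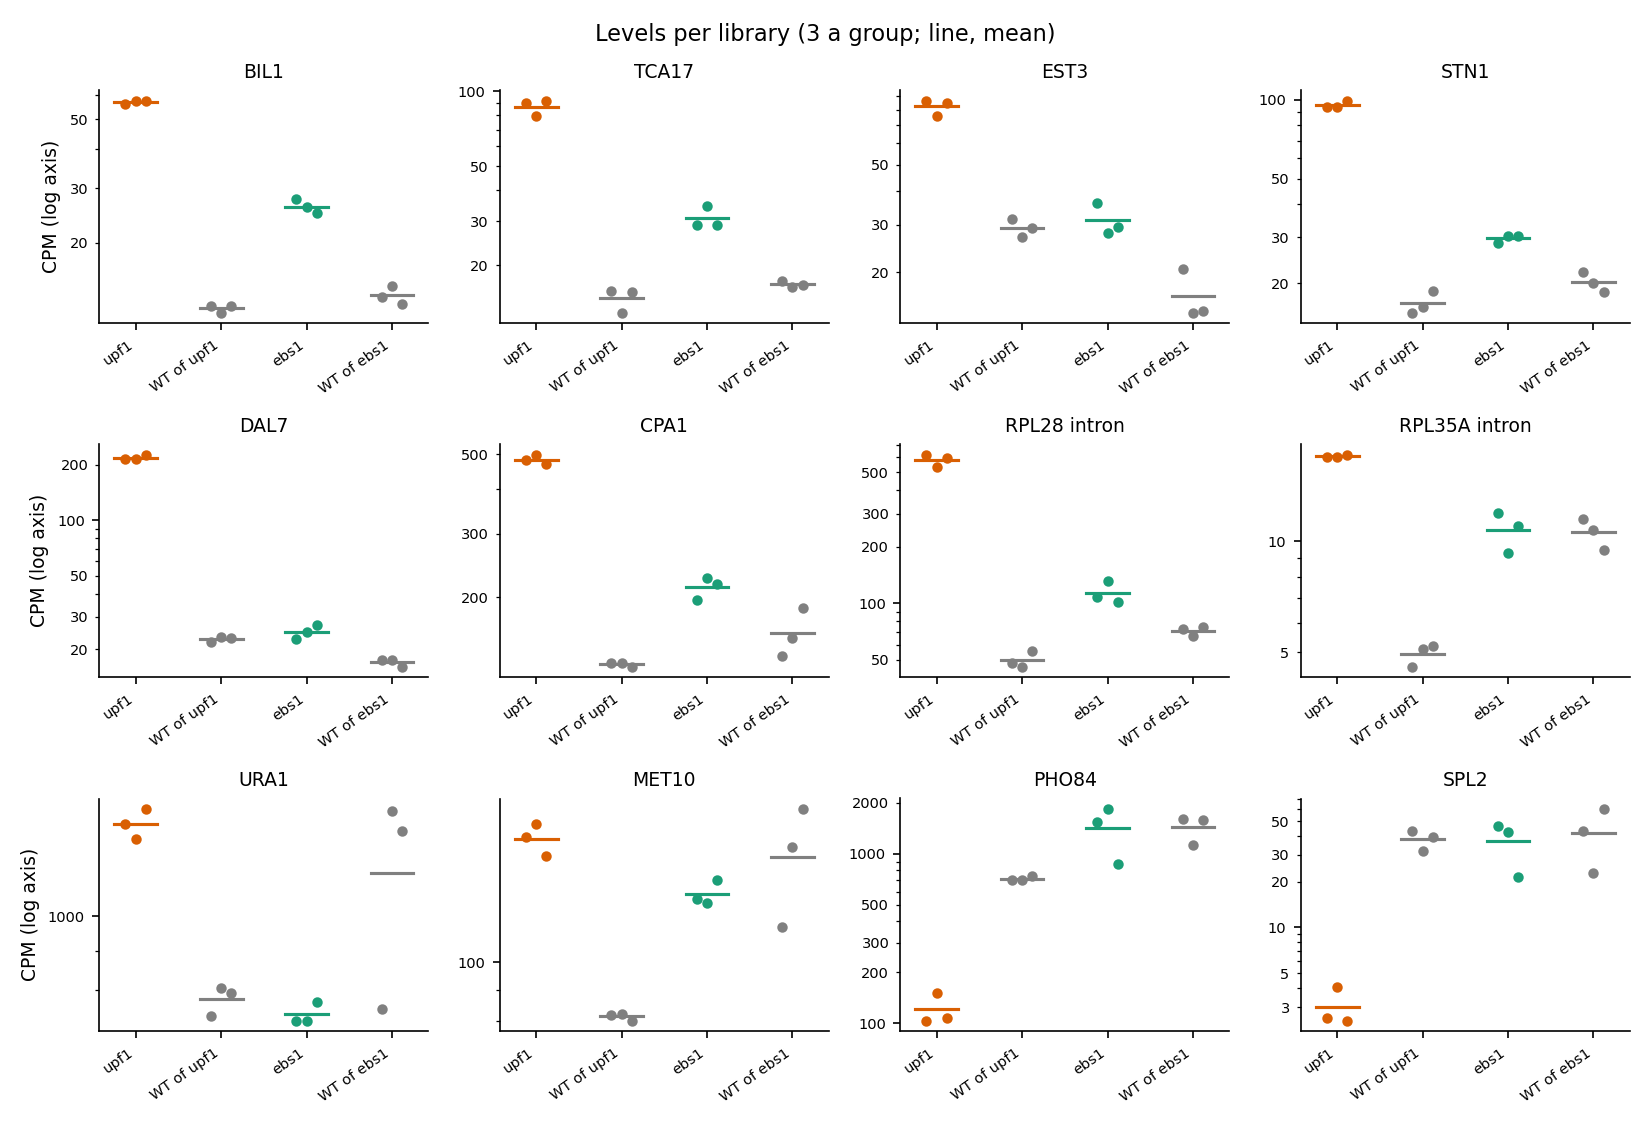
CPM (log axis) of 12 features in each of the 3 libraries of the upf1 deletion, its wild type, the ebs1 deletion and its wild type; lines are means and each series is scaled on its own. BIL1, TCA17, EST3, STN1 and DAL7 lie higher in both deletions; the RPL35A intron, PHO84 and SPL2 differ from wild type in the upf1 deletion, and their ebs1 and wild-type libraries overlap.

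An upstream ATG lies between the annotated transcript start and the coding start in 27.3% of the tested coding features without introns that have such a leader (1355 of 4969). Among the upf1-raised ones the share was 56.3% (184 of 327). Among those also called higher in the ebs1 deletion it was 72.7% (16 of 22), and with the replicate block 62.4% (58 of 93). Raised features with an ebs1 effect of 30% or more of the upf1 effect held one in 53.1% (52 of 98), and those at 10% or less in 53.3% (40 of 75). Leaders had a median of 50 bases in both of these groups, and coding sequences a median of 681 and 924 bases. These are shares of annotated windows and carry no test. The windows differ much in length, and many are exactly 50 bases. That of CPA1 is 50 bases and holds 0 ATGs, although a peptide is encoded upstream of that gene. That of FRE2 is 2449 bases and holds 55. The shares depend on these lengths, and whether the windows match the true leaders was not tested.

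Among 23 tested genes known as NMD substrates from earlier work, 17 were called higher and 1 lower in the upf1 deletion (median log2 0.86). The shares of all features called higher and lower in that deletion were 34.9% and 30%. In the ebs1 deletion 2 of the 23 genes were called higher and 0 lower (median 0.21), against 0.491% of all features called higher. The slope over the list was 22.3%, with 22.1%, 21.1% and 24.3% for the 3 replicate numbers, beside 20.0% over all coding features tested. The difference was called in 10, all of them with the larger change in the upf1 deletion, against 17.3% of all features called higher. With the replicate block 7 were called higher in the ebs1 deletion and the difference was called in 15, against 2.99% and 21.8% of all features.

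EST3, a telomerase subunit whose full protein needs a ribosomal frameshift, kept most of its change. It had 86.0, 76.0 and 84.9 CPM in the upf1 deletion, against 31.4, 27.0 and 29.2 CPM in its wild type. Levels in the ebs1 deletion were 36.0, 28.0 and 29.5 CPM, against 20.5, 14.2 and 14.4 CPM in its wild type. The ebs1 effect was log2 0.93 ± 0.17 (adjusted p = 0.0448, edgeR), 62.2% of the upf1 effect of 1.49, and the difference did not pass (adjusted p = 0.0593, or 0.00212 with the replicate block). EST2, the telomerase catalytic subunit, kept less: 54.1, 56.6 and 55.3 CPM in the upf1 deletion, against 9.41, 11.4 and 12.8 CPM in its wild type, but 23.0, 20.0 and 18.4 CPM in the ebs1 deletion, against 17.7, 17.2 and 14.2 CPM in its wild type. Its ebs1 effect of 0.32 was 13.9% of the upf1 effect of 2.30 and passed only with the block (adjusted p = 0.359, or 0.0478 with the block, edgeR).

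STN1, a telomere capping gene with an upstream reading frame, had 94.2, 93.7 and 99 CPM in the upf1 deletion, against 15.5, 16.3 and 18.8 CPM in its wild type. Its ebs1 libraries held 28.6, 30.3 and 30.4 CPM, against 22.2, 20.1 and 18.6 CPM in its wild type (log2 0.55 ± 0.10, adjusted p = 0.0466, edgeR). That is 22.1% of the upf1 effect. Of 13 telomere maintenance genes tested, 8 were called higher and 3 lower in the upf1 deletion, where 34.9% of all features were called higher and 30% lower. Of these genes 2 were called higher in the ebs1 deletion (4 with the block) and 0 lower, against 0.491% of all features called higher (2.99% with the block). The difference was called higher in 7 and lower in 1, against 17.3% and 3.02% of all features. This list and that of known NMD substrates can share members, so their counts are not separate evidence.

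CPA1, a subunit of the arginine-specific carbamoyl phosphate synthetase, is repressed through a peptide encoded upstream of its coding sequence. It had 482, 498 and 471 CPM in the upf1 deletion, against 131, 131 and 128 CPM in its wild type, and 196, 226 and 217 CPM in the ebs1 deletion, against 137, 154 and 186 CPM in its wild type. The ebs1 libraries lay above their wild type with no overlap, and the effect of log2 0.42 passed only with the block (adjusted p = 0.169, or 0.0152 with it, edgeR). ALR1, a magnesium transporter with an upstream reading frame, went the same way (log2 0.88 in upf1 and 0.38 in ebs1, 43.7%, ebs1 adjusted p = 0.125, or 0.0153 with the block, edgeR). CPA1 shares its reads with the annotated upstream peptide gene.

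NMD4, which encodes a protein bound to Upf1, had 118, 112 and 122 CPM in the upf1 deletion, against 29.5, 26.2 and 27.3 CPM in its wild type. The ebs1 libraries had 48.1, 47.7 and 47.6 CPM, against 31.4, 26.8 and 22.9 CPM in its wild type. The ebs1 effect of log2 0.82 was 39.4% of the upf1 effect, and the difference of 1.26 was called (adjusted p = 0.00018, edgeR). With the replicate block NMD4 was called in the ebs1 effect too (adjusted p = 0.0662, or 0.0168 with the block).

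Introns of ribosomal protein genes rose in the upf1 deletion, and in the ebs1 deletion their median effect was 16.5% as large. Of 89 tested, 71 were called higher and 2 lower in the upf1 deletion, against 34.9% and 30% of all features. In the ebs1 deletion 0 were called in either direction (3 higher and 1 lower with the block). The median effects were log2 0.85 and 0.14, and the difference was called higher in 45, against 17.3% of all features. The slope was 16.1%, with 14.7%, 26.5% and 7.41% for the 3 replicate numbers.

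The RPL28 intron had 617, 532 and 597 CPM in the upf1 deletion, against 48.1, 46.0 and 55.8 CPM in its wild type. The ebs1 libraries held 108, 132 and 101 CPM, against 72.9, 66.7 and 75.0 CPM in its wild type, without overlap (log2 0.67, adjusted p = 0.13, or 0.0213 with the block, edgeR). The RPL22B intron had an ebs1 effect of log2 0.70, 25% of its upf1 effect of 2.78. The RPL35A intron differed from these: 16.9, 16.9 and 17.1 CPM in the upf1 deletion, against 4.58, 5.12 and 5.20 CPM in its wild type, but 11.9, 9.31 and 11.0 CPM in the ebs1 deletion, against 11.5, 10.7 and 9.47 CPM in its wild type. Its ebs1 libraries and wild-type libraries overlapped, and the ebs1 effect was 1.15% of the upf1 effect. The RPS13 intron reached 7.46% (log2 0.17 against 2.32). All 4 carry the in-frame stop printed above, which begins at intron base 6 in RPL28, 7 in RPL22B, 13 in RPL35A and 19 in RPS13. Of the 122 introns of other genes, 29 were called higher and 11 lower in the upf1 deletion, smaller shares than the 34.9% and 30% over all features. None of these introns was called in the ebs1 deletion (1 higher with the block), and 5 differences were called higher and 2 lower (7 each way with the block).

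The phosphate (PHO) regulon fell in the upf1 deletion, and its ebs1 effects varied between replicate numbers. Of 17 genes tested, 14 were called lower and 1 higher in the upf1 deletion, against 30% and 34.9% of all features. In the ebs1 deletion 0 were called, also with the block. That is near the shares over all features, 0.491% higher and 0.0193% lower (2.99% and 1.37% with the block). The median log2 effects were -1.36 and -0.04. The ebs1 side varied widely, with slopes of -1.97%, -36.0% and 57.7% for the 3 replicate numbers. The difference was called lower in 11, against 3.02% of all features. The list was chosen with the upf1 pattern known, so its upf1 direction is no independent evidence.

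PHO84, the high-affinity phosphate transporter, had 104, 152 and 107 CPM in the upf1 deletion, against 699, 702 and 738 CPM in its wild type. In the ebs1 deletion it had 1550, 1840 and 878 CPM, against 1610, 1130 and 1580 CPM in its wild type. The upf1 libraries lay below all others, whereas ebs1 and its wild type overlapped (difference log2 -2.54, adjusted p = 4.1e-05, edgeR). SPL2, a regulator of low-affinity phosphate transport, had 2.55, 4.05 and 2.45 CPM in the upf1 deletion, against 42.7, 31.6 and 39.5 CPM in its wild type. It had 46.7, 42.2 and 21.4 CPM in the ebs1 deletion, against 43.1, 22.7 and 59.9 CPM in its wild type (difference log2 -3.41, adjusted p = 2.6e-05). PHM6 and PHO12, an acid phosphatase gene, differed by log2 -3.05 and -2.72. GIT1, a glycerophosphoinositol transporter of the same regulon, went the other way in the upf1 deletion (log2 2.4) and reached 12.3% of it in the ebs1 deletion. The wild types differed in level: the 17 genes summed to 3040, 2930 and 3150 CPM in the wild type of upf1 and to 5400, 3950 and 5310 CPM in that of ebs1, on tables scaled separately. Whether that plays a part in the difference was not tested.

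ADR1 and URA1 were called higher in the upf1 deletion, and their ebs1 effects were below 0 without passing the test. ADR1, a transcription factor of glucose derepression, had 129, 123 and 117 CPM in the upf1 deletion, against 58.3, 68.0 and 58.6 CPM in its wild type, and 68.7, 64.7 and 65.6 CPM in the ebs1 deletion, against 63.6, 127 and 79.8 CPM in its wild type. The difference was log2 1.44 (adjusted p = 0.00031, edgeR), while the ebs1 effect of -0.44 did not pass (adjusted p = 0.388). URA1, the dihydroorotate dehydrogenase of pyrimidine synthesis, had 1320, 1260 and 1380 CPM in the upf1 deletion, against 741, 806 and 792 CPM in its wild type. It had 730, 730 and 773 CPM in the ebs1 deletion, against 755, 1370 and 1290 CPM in its wild type (difference log2 1.37, adjusted p = 0.000173, edgeR). In both genes wild-type replicate 2 of the ebs1 series was the highest of its group. Without it the differences were log2 1.11 for ADR1 and 1.22 for URA1 and still called.

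Of 11 pyrimidine synthesis genes 5 were called higher and 5 lower in the upf1 deletion, against 34.9% and 30% of all features. None was called in the ebs1 deletion (2 lower with the block), and 4 had a difference called higher, URA1, URA4, URA6, which overlaps MIN9 on the same strand, and URA10. URA10, a second orotate phosphoribosyltransferase, had an ebs1 effect of log2 0.36 beside a upf1 effect of 1.26. Of 20 sulfur and methionine genes 10 were called higher and 4 lower in the upf1 deletion, against 34.9% and 30% of all features. In the ebs1 deletion 0 were called, and the medians were log2 0.25 in upf1 and -0.15 in ebs1. The difference was called higher in 4, near the 17.3% over all features (with the block 9 higher and 1 lower, against 21.8% and 11.5%). The 4 were MET1 (2.14 and 0.13), MET10 (0.96 and -0.20), MET3 (0.73 and -0.24) and SUL2 (0.42 and -0.18). MET17, deleted in BY4741, was near 0 in every library. Of 12 arginine synthesis genes 10 were called higher in the upf1 deletion and 0 in the ebs1 deletion (2 higher with the block), with 3 differences called: CPA1, ARG8 (1.23 and 0.02) and ARG81 (1.21 and 0.09). ARG8 overlaps PPM2 on the same strand.

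Of 16 meiosis and sporulation genes tested, 12 were called higher in the upf1 deletion (median log2 1.21), against 34.9% of all features, and 9 of the 16 were upf1-raised. Only 1 was called higher in the ebs1 deletion (median 0.11), and 8 differences were called higher, against 0.491% and 17.3% of all features. That 1 gene was ISC10, required for spore formation, at 72.9, 77.8 and 73.3 CPM in the upf1 deletion, against 9.08, 9.12 and 11.7 CPM in its wild type, and 37.4, 38.3 and 29.9 CPM in the ebs1 deletion, against 24.0, 23.2 and 22.0 CPM in its wild type. SPO13, a meiosis I regulator, had 1.57, 2.37 and 1.70 CPM in the upf1 deletion, against 0.573, 0.659 and 0.629 CPM in its wild type. Its ebs1 libraries had 0.45, 0.448 and 0.41 CPM, against 0.614, 1.22 and 0.882 CPM in its wild type. It thus lay higher in the upf1 deletion and lower in all 3 ebs1 libraries, where the change did not pass (log2 -0.90, adjusted p = 0.206, edgeR).

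Seripauperin genes, a subtelomeric family of cell wall proteins, were called higher in 8 of 9 in the upf1 deletion, against 34.9% of all features. In the ebs1 deletion 0 were called (median log2 1.68 and 0.17), and 5 differences were called, against 17.3% of all features called higher. Of 24 members listed only these 9 had enough counts. Its members and those of the COS family, subtelomeric membrane proteins, are near copies of each other and reads with several alignments were not set to be counted, so their levels are uncertain. COS12 had 35.6, 33.5 and 36.7 CPM in the upf1 deletion, against 1.06, 1.42 and 1.47 CPM in its wild type. It had 8.09, 10.8 and 8.70 CPM in the ebs1 deletion, against 5.19, 1.93 and 1.38 CPM in its wild type (log2 1.68, adjusted p = 0.106, or 0.0257 with the block, edgeR). Of 12 genes of allantoin and urea use 7 were called higher and 1 lower in the upf1 deletion, against 34.9% and 30% of all features. In the ebs1 deletion 1 of them, DAL7, was called higher (3 with the block), against 0.491% of all features (2.99% with the block). DAL7 had 216, 215 and 226 CPM in the upf1 deletion, against 21.9, 23.4 and 23.1 CPM in its wild type, and 22.6, 24.9 and 27.0 CPM in the ebs1 deletion, against 17.4, 17.5 and 16.1 CPM in its wild type.

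Ribosomal protein mRNAs were lower in the upf1 deletion in 130 of 138 and higher in 2, against 2526 and 1463 of 5723 coding features. Their median log2 was -0.46. In the ebs1 deletion the median was -0.27 and 0 were called. With the replicate block 28 were called lower, against 123 of the 5723 coding features. The ebs1 library was lower than the same-numbered wild type in all 3 pairs in 100 of the 138 genes and higher in 2. Over the 5723 coding features these counts were 1393 and 920. The difference was called higher in 1 and lower in 0 (1 and 34 with the block). The ebs1 effect was 52.0% of the upf1 effect over this list, but the 3 replicate numbers gave 28.9%, 31.2% and 88.4%. The median of all coding features was -0.13 in the upf1 effect and -0.03 in the ebs1 effect. With libraries scaled on coding features alone, which moved all upf1 effects by a median of 0.13 and all ebs1 effects by 0.03, the medians of the list were -0.33 in the upf1 effect and -0.24 in the ebs1 effect. RPS6B had 554, 434 and 544 CPM in the upf1 deletion, against 911, 779 and 873 CPM in its wild type, and 730, 702 and 747 CPM in the ebs1 deletion, against 685, 884 and 1040 CPM in its wild type. Its wild-type libraries in the second series span the ebs1 values, and its ebs1 library numbered 1 lay above the wild type of that number.

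Ribosome biogenesis genes were lower in 23 of 23 in the upf1 deletion (median log2 -0.53), and 0 were called in the ebs1 deletion (median -0.20; 5 lower with the block), with slopes of 31.7%, -4.32% and 74.7% by number and 1 difference called lower (16 with the block). Glycolysis and fermentation genes were lower in 16 of 18 and higher in 2 in the upf1 deletion, where 2526 of 5723 coding features were called lower. The median was -0.37, or -0.24 with libraries scaled on coding features. None was called in the ebs1 deletion (median -0.15), and no difference was called (5 lower with the block). The 174 upf1-lowered features of all kinds (log2 of -1 or less, 1.68% of those tested) gave a slope of 5.87% and replicate numbers of -20.5%, -10.7% and 27.4%, so no share could be set for them. 0 of the 174 were called in the ebs1 deletion (1 higher with the block).

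**Figure D5:**
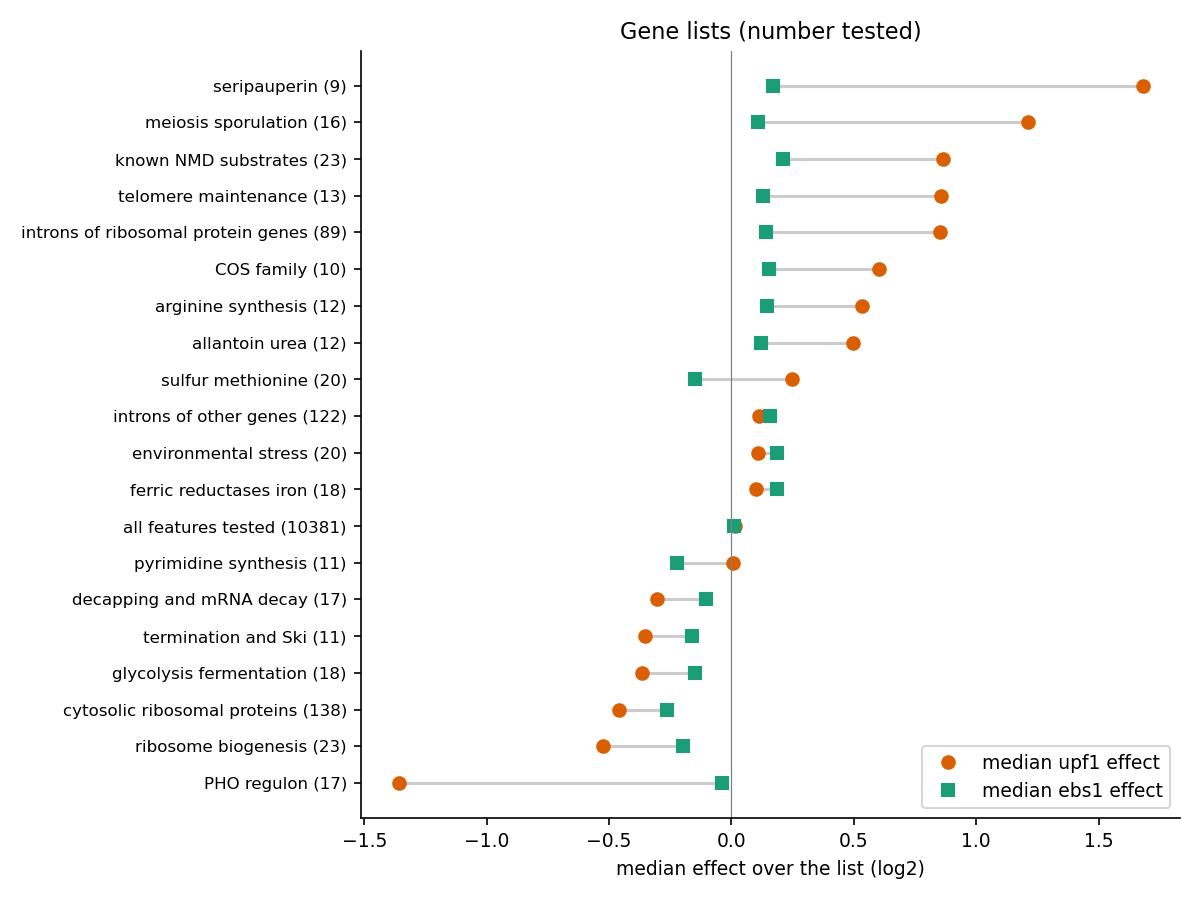
Median upf1 effect (orange circles) and median ebs1 effect (green squares), both log2, over each gene list, with the number of features tested in brackets. The medians of the seripauperin, meiosis, NMD substrate and telomere lists lie at 0.86 to 1.68 in the upf1 effect and at 0.11 to 0.21 in the ebs1 effect, and the PHO regulon lies at -1.36 and -0.04.

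In the other lists few ebs1 effects were called, as over all features (0.491% higher and 0.0193% lower, or 2.99% and 1.37% with the block). For comparison, the upf1 effect was called higher in 34.9% of all features and lower in 30%. The difference was called higher in 17.3% and lower in 3.02% (21.8% and 11.5% with the block). Of 17 genes of decapping and cytoplasmic decay 14 were called lower in the upf1 deletion and 0 in the ebs1 deletion, and 3 had a difference called lower (8 with the block): DCP1, the decapping subunit, EDC1, a decapping enhancer, and XRN1, the main 5′ to 3′ exonuclease. The differences of DCP1 and XRN1 were not called when libraries were scaled on coding features alone, and that of XRN1 was lost in 7 of 12 fits that left out 1 library. Of 18 iron uptake genes 8 were called higher and 8 lower in the upf1 deletion. Over all features the shares were 34.9% and 30%, and of 5723 coding features 1463 were called higher and 2526 lower. None of the 18 genes was called in the ebs1 deletion, and 2 differences were called higher and 2 lower (with the block 2 ebs1 effects higher, and 5 differences each way). FRE2, a ferric reductase, had 78.1, 78.1 and 74.6 CPM in the upf1 deletion, against 17.6, 18.8 and 17.7 CPM in its wild type, and 25.5, 24.4 and 27.3 CPM in the ebs1 deletion, against 21.6, 19.3 and 19.9 CPM in its wild type (16.3%). The multicopper oxidase gene FET3 (-0.88 in upf1 and -0.02 in ebs1) fell in the upf1 deletion, and its difference (log2 -0.86, adjusted p = 0.0413, edgeR) was not called in 10 of 12 fits that left out 1 library. Of 11 genes of translation termination and the Ski complex 8 were called lower in the upf1 deletion and 0 in the ebs1 deletion, and no difference was called (with the block 1 ebs1 effect and 2 differences lower).

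Environmental stress genes stood at different levels in the 2 wild types, on tables scaled separately. The 20 listed genes summed to 8210, 8570 and 8160 CPM in the wild type of upf1 and to 1620, 2050 and 1670 CPM in that of ebs1. The catalase gene CTT1, for example, had 160, 153 and 169 CPM in the upf1 deletion, against 96.1, 103 and 105 CPM in its wild type, and 15.5, 11.3 and 22.0 CPM in the ebs1 deletion, against 12.2, 16.0 and 16.8 CPM in its wild type. Of the 20 genes 7 were called higher in the upf1 deletion, near the 34.9% over all features, and 2 lower, a smaller share than the 30% over all features. In the ebs1 deletion 0 were called. Among the differences 1 was called, that of the chaperone gene SSA3 (2 higher and 1 lower with the block), against 17.3% of all features called higher. A part of the series or experimenter in how far a gene can respond cannot be told apart from the deletion in the differences reported here.

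Apart from the deleted genes, the 4 largest differences under the naming rule were those of the non-coding transcripts XUT_13F-12 (log2 5.11), XUT_15R-4 (4.71), XUT_13F-10 (4.47) and CUT281 (4.28). XUT_15R-4, which overlaps AAD15 on the same strand, had 8.38, 8.58 and 8.79 CPM in the upf1 deletion, against 0.0409, 0.101 and 0.21 CPM in its wild type, and 0.27, 0.448 and 0.451 CPM in the ebs1 deletion, against 0.167, 0.215 and 0.23 CPM in its wild type. CUT281 had 27.5, 18.3 and 28.9 CPM in the upf1 deletion, against 1.15, 1.52 and 0.922 CPM in its wild type. In the ebs1 deletion CUT281 had 1.98, 2.32 and 5.17 CPM, against 1.79, 3.22 and 4.22 CPM in its wild type, which overlap (difference log2 4.28, adjusted p = 6.39e-05, edgeR). XUT_13F-12, XUT_13F-10 and XUT_4F-339 had ebs1 effects below 0 beside upf1 effects of 4.79, 4.32 and 2.86. SUT840 and XUT_16R-363, whose counts are nearly the same, reached 11.8% and 11.0%. The Ty3 reading frame YGR109W-B, which is also counted as YGRWTy3-1, had a difference of log2 2.97 whose size depended on 1 library. Wild-type replicate 2 of the ebs1 series held 58.1 CPM, against 10.3 and 9.16 CPM in the other wild-type libraries. Without it the difference was 1.59 and still called, and the call was lost in 0 of 12 fits that left out 1 library. The largest negative differences outside the PHO regulon were those of the CUTs CUT_GIM_0305, which overlaps ALD6, CUT_GIM_0346 and CUT567 and of the reading frame IRC13. All 4 were called lower in the upf1 deletion and had ebs1 effects above 0 that did not pass. The difference of CUT567 was lost in 7 of 12 fits that left out 1 library.

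Markers of mating type showed a cells in all 4 groups. The 7 a-specific genes summed to 771 to 829 CPM in the upf1 deletion, against 982 to 1030 CPM in its wild type, and to 940 to 1250 CPM in the ebs1 deletion, against 766 to 1470 CPM in its wild type. The 5 tested alpha-specific genes summed to 108 to 119 CPM in the upf1 deletion, against 29.3 to 35.3 CPM in its wild type, and to 43.3 to 50.9 CPM in the ebs1 deletion, against 35.1 to 41.8 CPM in its wild type. Among them SAG1, the alpha agglutinin gene, was called higher in the upf1 deletion (log2 2.01), while the pheromone genes MF(ALPHA)1 and MF(ALPHA)2 stayed under 1 CPM in all 12 libraries. The part of these markers in the differences was not tested.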

How the data were processed

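Per the file headers, the authors made 2 tables of raw read counts per feature with featureCounts (Subread 1.5.0-p3), sense strand, with reads given to every feature they overlap and without the option that counts reads with several alignments. Per the submitters' processing notes alignment was with STAR 2.4.2a to R64. The deposited counts carry no scaling. Libraries were scaled by TMM within each series and features kept by filterByExpr over 6 groups. Effects were fitted with edgeR 4.0.16 (quasi-likelihood, prior count 2, R 4.3.3): upf1 on 6 libraries, ebs1 on 12 and the difference on 18, all 2-sided with Benjamini-Hochberg adjustment over 10381 features at 0.05. limma 3.58.1 and DESeq2 1.42.0 served as alternatives. Standard errors are the absolute unshrunken log2 change over the square root of F. The labels say that same-numbered libraries ran in parallel. Deviations of same-numbered ebs1 and wild-type libraries correlated at 0.447, 0.0848 and 0.274, and of upf1 and wild-type libraries at 0.0964, 0.192 and 0.0147. 6007 of 6682 reading frame identifiers matched RefSeq.

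Members, gene lists and comparisons were chosen with earlier results of these data known. Named features were the deleted genes, the largest differences among features that averaged 5 CPM or more in 1 group and had no overlap of per-number effects, the features called in both effects with the smallest p, upf1-raised features with the smallest ebs1 p, all known NMD substrates, and up to 4 members of each list with the smallest p for the difference. FLR1, NPP2, RIM21, SRB6, SUT439 and YJR112W-A were named after their values were seen. Scripts were tested on simulated data.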

Additional observations from a re-analysis of the deposited data

Results flagged for a closer look

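The upf1 effect and the ebs1 effect differed in 1798 features where the first was the higher and in 313 where it was the lower (edgeR interaction contrast, adjusted p under 0.05), as described above.

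The libraries of the nmd4 deletion also lay above all 3 wild-type libraries of their series along the upf1 effect over all upf1-raised features. They did not over raised coding features or raised XUTs alone. They are not among the groups compared and entered only the filter, the scaling and the estimate of spread. Over the 1874 upf1-raised features they stood at 6.19%, 5.43% and 5.94%, while the wild-type libraries reached at most 4.91%. The ebs1 libraries reached at least 12.6%. Over raised coding features alone the nmd4 libraries stood at 5.32%, 0.586% and 6.74%, and overlapped the wild type, which reached 2.47%. Over raised XUTs alone they stood at 5.87%, 6.16% and 6.45%, all below wild-type replicate 3 at 7.0%. Over raised SUTs they stood at 5.52%, 4.14% and 5.28%, and the wild type reached 3.49%. These libraries share their wild type with the ebs1 deletion, and the position was not tested.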

How the results depend on the processing

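The share of the upf1 effect over upf1-raised features stayed between 11.3% (summed CPM changes on a linear scale) and 17.7% over the alternatives run, and between 13.6% and 17.7% with single libraries left out. On the linear scale coding features gave 12.1% and SUTs 10.6%, a scale chosen after seeing the data. Counts of features called lower by the difference were 138 with scaling on coding features, 1190 with the replicate block and 153 to 486 with single libraries left out. With only the 12 libraries of the 4 groups fitted, the difference was called higher in 1708 features and lower in 227. Counts called higher in the ebs1 effect were 22 with RLE scaling, 24 without a filter, 310 with the replicate block, 211 with DESeq2 and 2 to 45 with libraries left out. Counts called lower were 1, 1, 142, 48 and 1 to 15 in the same order. Scaling on coding features gave 4168 features higher and 2082 lower in the upf1 effect, against 3620 and 3116.
That scaling also moved list medians of the upf1 effect: -0.56 for a-specific genes, 0.73 COS, -0.33 ribosomal proteins, -0.17 decapping, 0.24 stress, -0.24 glycolysis, 0.21 introns of other genes, 0.98 ribosomal protein introns, 0.99 NMD substrates, 1.33 meiosis, 0.11 NMD factors (whose main median was -0.02), -1.23 PHO, -0.40 ribosome biogenesis, 1.81 seripauperins, 0.99 telomere and -0.23 termination. The cause was not tested. No named difference that was called changed sign under any alternative run. Of the 559 upf1-raised features under 1 CPM in the wild types, 0 were called in the ebs1 effect and 8 with the replicate block; the part of depth was not tested.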
